A study of Homo sapiens with 16 samples.

Results

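Mesenchymal stem cells (MSCs) made senescent with mitomycin C (MmC) were compared with untreated cells of the same line, with no growth differentiation factor 11 (GDF11) in either group. The 8 libraries, of 16 in the series, were chosen by their labels: 4 libraries of MmC+/GDF11- and 4 of MmC-/GDF11-, replicates 1 to 4 of each. The cells are ASC52telo, an adipose-derived MSC line immortalized with telomerase, so every library comes from 1 line kept in culture. The exposure to MmC lasted 18 h at 1.5 µg/mL and was followed by 10 days of incubation, and the MmC-/GDF11- cells received neither agent. Poly(A)-enriched RNA was sequenced, and the deposited values are raw read counts per gene. The question here was which genes changed outside the senescence-associated secretory, p53 target and cell cycle genes, the programs for which senescent cells are best known.

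MmC is an alkylating agent that joins the strands of DNA and stops replication. Cells that survive such damage can leave the cell cycle for good and remain alive and metabolically active, which is called senescence. In culture, senescent fibroblasts and MSCs are known to be enlarged, to hold more lysosomes, to lose lamin B1 from the nuclear envelope and to remodel the matrix around them. MSCs of fat tissue normally make collagen and other matrix, and can turn into fat, bone and cartilage cells.

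The 8 libraries held between 74041671 and 107776837 counts. Replicate 1 stood apart in both groups, and the study names batch effects among its limitations. The median root mean square distance of its log2 CPM (the counts of a gene scaled to a common library total) to the other libraries of its group was 0.603 in MmC-/GDF11- and 0.720 in MmC+/GDF11-, and the other 6 libraries lay between 0.404 and 0.499. Mitochondrially encoded genes took 2.81% to 3.11% of the counts in MmC-/GDF11- and 3.55% to 4.48% in MmC+/GDF11-. The MSC surface markers NT5E (CD73), THY1 (CD90), ENG (CD105) and CD44 were present in all 8 libraries, at 551–712 CPM and 733–868 CPM for NT5E without and with MmC, and at 515–612 CPM and 524–597 CPM for ENG. Of 9 blood cell markers 4 had enough counts to be tested. TYROBP had 3 counts over the 8 libraries and AIF1 had none. Whether reads of AIF1 were lost to near-identical sequence elsewhere in the genome was not tested, so its lack of counts is not read as absence. The epithelial markers EPCAM and KRT5 had 12 and 5 counts, and the list of 6 summed to 49.7 to 83.3 CPM in MmC-/GDF11- and 15.9 to 18.3 CPM in MmC+/GDF11-. Nearly all of that sum was KRT14, a keratin of basal epithelium and the member of the 4 tested that fell (log2 fold change -1.94, adjusted p = 7.33e-07). Summed over the list, blood cell markers reached between 1.9 and 2.98 CPM in MmC-/GDF11- and between 4.47 and 7.15 CPM in MmC+/GDF11-, and endothelial markers between 56.2 and 82.6 CPM in MmC-/GDF11- and between 65.4 and 120.2 CPM in MmC+/GDF11-. Of the 8 endothelial markers tested, 2 were higher and 1 lower, and of the 4 blood cell markers tested 3 were higher, or 1 without either MmC-/GDF11- replicate 3 or MmC-/GDF11- replicate 4. The part of these marker lists in the results was not tested.

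Changes were tested with edgeR's quasi-likelihood test on the 19103 genes with enough counts, and a gene is said to have risen or fallen where the Benjamini-Hochberg adjusted p was under 0.05. CPM values were scaled by the TMM method, so a fall in CPM is a fall relative to the other transcripts of the library. In bulk RNA, fewer cells with a transcript and less of it per cell cannot be told apart. Of all genes tested 45.3% were called, 22.9% higher and 22.4% lower after MmC. Of the 296 tested genes in the 3 well-known lists 231 were called. These lists are short, so they made up 2.67% of the 8655 called genes, and 8424 called genes lay outside them. These were 4292 that rose and 4132 that fell. When the change itself was tested against 2-fold, 990 genes (5.18%) were higher and 304 (1.59%) lower, 6.77% together, and outside the 3 lists 939 were higher and 255 lower. Without replicate 1 in any group, 5059 genes were higher and 4945 lower.

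**Figure D1:**
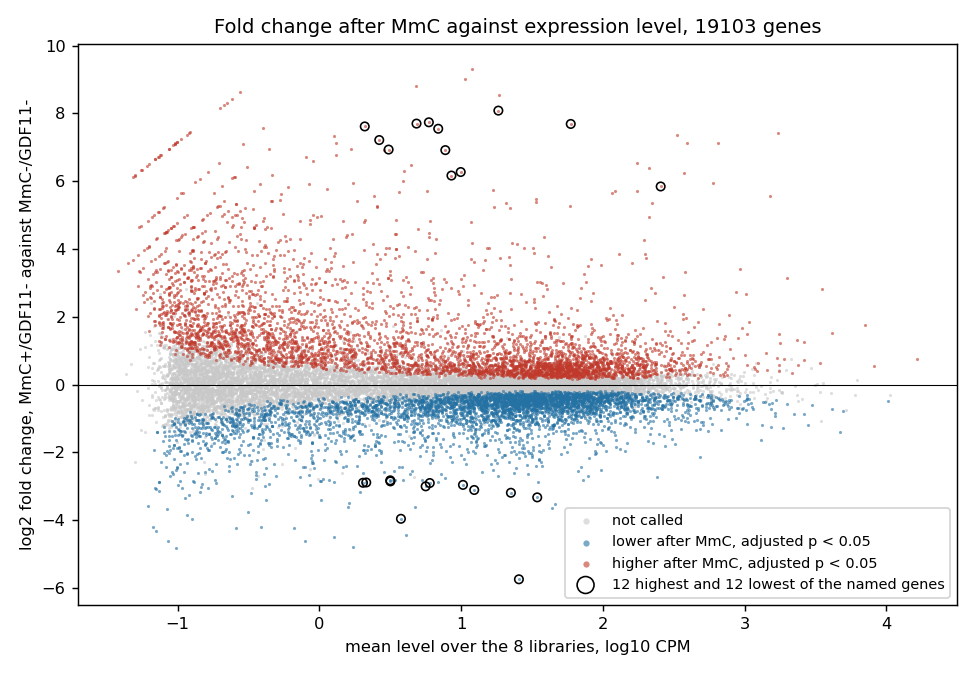
Log2 fold change (MmC+/GDF11- against MmC-/GDF11-) plotted against the mean level over the 8 libraries in log10 CPM, 1 point per gene tested (19103 genes), with called genes in colour and the 12 highest and 12 lowest named genes circled. Rises reached 9.30 on the log2 scale and the deepest fall was -5.74, in ADH1B.

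Called genes took a different part of the counts in each group. The sets called higher and lower come from these same counts. The direction of the shift was thus fixed by the choice, and only its size is described. Genes called higher took 16.9% to 20.1% of the counts in MmC-/GDF11- and 32.2% to 35.3% in MmC+/GDF11-. Genes called lower went from between 32.8% and 37.5% of the counts to between 21.4% and 22.5%. Protein-coding genes were called in both directions about equally often, with 3362 higher and 3549 lower of 13967. Long noncoding RNA genes leaned upward, with 792 higher and 435 lower of 3404, and 217 higher and 44 lower past 2-fold. The median log2 fold change was 0.13 for long noncoding RNA genes, -0.02 for protein-coding genes and -0.01 for all genes tested.

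Outside the 3 lists, the largest rises were taken among protein-coding genes with a mean of at least 2 CPM over the 8 libraries. Most were under 1 CPM in every untreated library, with TGM2 the exception. A gene that low without MmC could meet this condition only through the treated libraries. Its low start is therefore partly a product of the choice. The 12 highest were EHF, PI3, TREM1, HAS1, CST2, IL36B, SPRR2D, TREM2, MUC13, C15orf48, BMP2 and TGM2, with log2 fold changes from 5.85 to 8.08. Their 4 MmC-/GDF11- libraries together held between 7 and 3140 reads per gene. At the lowest of these counts a fitted fold change is imprecise and depends on the prior count, so the levels after MmC are the firmer value. Across all genes 37.3% had groups that did not overlap (19.1% higher and 18.2% lower after MmC). A gap between the groups was a condition for naming these genes and is not a result.

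EHF (ENSG00000135373.13, hg38 chr11:34621093-34663288) encodes an ETS transcription factor known from epithelial cells. Its MmC-/GDF11- libraries held 0.091, 0.0518, 0.0524 and 0.308 CPM and its MmC+/GDF11- libraries 11.5, 51, 49.2 and 34.2 CPM, in order of replicate. Replicate 1 was the lowest after MmC (log2 fold change 8.08 ± 0.72 SE, adjusted p = 7.61e-07). The fold rested in part on 1 untreated library, and was 9.13 without MmC-/GDF11- replicate 4. Other genes of this group are likewise known from epithelium. PI3 (elafin), a protease inhibitor of the skin and airway, went from 0.0193–0.104 CPM to 1.37–20.6 CPM (7.74, adjusted p = 2.67e-05). SPRR2D, a protein of the cornified envelope, was at 0.0262–0.0414 CPM before and 2.02–7.97 CPM after (7.22, adjusted p = 2.01e-07), although 32.6% of its exonic words of 31 bases also occur in another gene. MUC13, a transmembrane mucin, held 1.22, 20.8, 18.5 and 20.8 CPM after MmC, with replicate 1 well below the other three, against 0.0932–0.182 CPM before (6.92, adjusted p = 6.81e-05).

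HAS1 (ENSG00000105509.11, chr19:51713112-51723991), a hyaluronan synthase, had 0.533, 0.466, 0.537 and 0.733 CPM in the MmC-/GDF11- libraries. After MmC it had 8.33, 239, 157 and 68.1 CPM, and the treated libraries varied widely (log2 fold change 7.69 ± 1.08 SE, adjusted p = 5.18e-05). Its log2 fold change was 7.10 without MmC+/GDF11- replicate 2 and 8.05 without replicate 1 in any group. TGM2 (ENSG00000198959.12, chr20:38127385-38166578), the tissue transglutaminase that crosslinks matrix proteins, was the most abundant of the 12. It rose from 9.64, 8.27, 6.02 and 11 CPM to 105, 948, 677 and 281 CPM (log2 fold change 5.85 ± 0.74 SE, adjusted p = 2.04e-05). For both genes replicate 1 was the lowest treated library.

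Several of the 12 encode immune signals or their receptors that are better known from myeloid or epithelial cells. IL36B, a cytokine of the interleukin-1 family, had 0.221, 0.0104, 0.0131 and 0.0578 CPM before MmC and 9.42, 13.9, 19.1 and 12.5 CPM after it (log2 fold change 7.55 ± 0.55 SE, adjusted p = 1.50e-07), and the log2 fold change was 8.84 without MmC-/GDF11- replicate 1. TREM1, a receptor that amplifies inflammatory signals in myeloid cells, held 0.466, 15.9, 11.1 and 11.1 CPM after MmC, with replicate 1 again lowest, against 0–0.0725 CPM before (7.70, adjusted p = 0.000146). With limma-voom its adjusted p was 0.0601. TREM2, a lipid-sensing receptor of macrophages and microglia, held 10.6, 3.55, 4.85 and 5.39 CPM against 0.117, 0.0518, 0.0131 and 0.0193 CPM (6.94, adjusted p = 1.07e-06), and here replicate 1 was the highest treated library. Its log2 fold change was 7.67 without MmC-/GDF11- replicate 1. TYROBP, the adaptor through which both receptors signal in myeloid cells, was near 0 in all 8 libraries, as given above. CST2, a cystatin, rose from 0.0104–0.0289 CPM to 0.355–7.22 CPM (7.62, adjusted p = 6.79e-05). C15orf48 (NMES1), a small mitochondrial protein of the respiratory chain, reached 11.2–27.4 CPM from 0.182–0.328 CPM (6.27, adjusted p = 1.38e-07), with 33.6% of its exonic bases under an exon of another gene. BMP2, a ligand of the TGF-beta superfamily that drives bone formation, rose from 0.416, 0.197, 0.0917 and 0.231 CPM to 2.53, 26.3, 20.7 and 17.9 CPM (log2 fold change 6.17 ± 0.79 SE, adjusted p = 2.36e-05). The log2 fold change of PI3 was 8.34 without MmC-/GDF11- replicate 2.

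**Figure D2:**
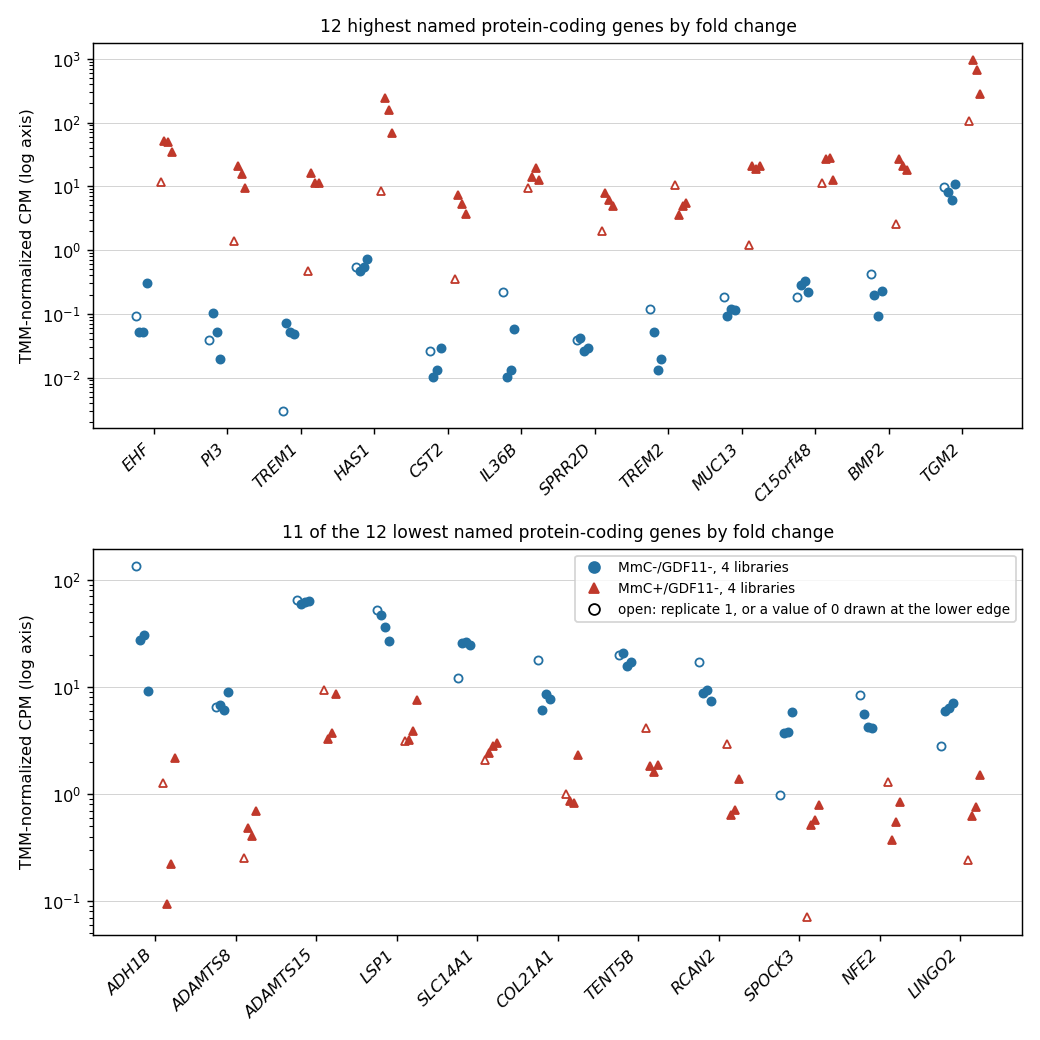
TMM-scaled CPM on a log axis in each of the 8 libraries for the 12 highest named protein-coding genes by log2 fold change (top) and 11 of the 12 lowest (bottom), circles for MmC-/GDF11- and triangles for MmC+/GDF11-, with replicate 1 drawn open. In most rising genes replicate 1 was the lowest treated library, in TREM2 it was the highest, and in ADH1B it was the highest untreated library at 134 CPM.

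The falls were smaller, with log2 fold changes from -5.74 to -2.82 for the 12 lowest. Of these, 11 are described here, ADH1B, ADAMTS8, ADAMTS15, LSP1, SLC14A1, COL21A1, TENT5B, RCAN2, SPOCK3, NFE2 and LINGO2. All 12 had 1326 to 22089 reads over the 4 untreated libraries. For a gene that fell, the condition of at least 2 CPM over the 8 libraries ensures coverage before MmC, so this is not a result. Of the 12, 11 passed the test against 2-fold, and SPOCK3, a matrix proteoglycan, did not (adjusted p = 0.0591 in edgeR's glmTreat). ADH1B, an alcohol dehydrogenase, varied widely among the untreated libraries, at 134, 27.6, 30.3 and 9.18 CPM, and its log2 fold change of -5.74 was -4.56 without MmC-/GDF11- replicate 1 and -6.53 without MmC+/GDF11- replicate 4.

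ADAMTS15 (ENSG00000166106.4, chr11:130448645-130476645) and ADAMTS8 are neighbours on chromosome 11 and encode proteases that cut matrix proteoglycans. ADAMTS15 was nearly the same in all untreated libraries, at 65.1, 59.6, 62.7 and 63.1 CPM, and fell to 9.35, 3.26, 3.71 and 8.63 CPM (log2 fold change -3.33 ± 0.36 SE, adjusted p = 5.46e-06). ADAMTS8 held 6.07–8.92 CPM before and 0.253–0.691 CPM after MmC (-3.96, adjusted p = 1.68e-06). LSP1, an actin-binding protein of leukocytes, had 51.9, 46.6, 36.4 and 26.9 CPM before and 3.12, 3.2, 3.84 and 7.59 CPM after (-3.19, adjusted p = 1.68e-05). The urea transporter gene SLC14A1 went from 12.2–26.4 CPM to 2.1–2.99 CPM (-3.11, adjusted p = 3.76e-06), and the poly(A) polymerase gene TENT5B from 15.7–20.5 CPM to 1.61–4.1 CPM (-2.96, adjusted p = 2.87e-06). COL21A1, a collagen associated with fibrils, fell from 6.13–17.7 CPM to 0.826–2.31 CPM (-3.00, adjusted p = 9.41e-05). RCAN2, an inhibitor of calcineurin, had a log2 fold change of -2.90, which was -3.54 without MmC+/GDF11- replicate 1. NFE2, a transcription factor of the blood lineage, fell from 4.13–8.36 CPM to 0.373–1.31 CPM (-2.85, adjusted p = 5.18e-05). LINGO2 fell from 2.81–7.05 CPM to 0.243–1.52 CPM (-2.82, adjusted p = 0.000799), with 44.4% of its exonic bases under another gene's exon.

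Of the 24 genes, 12 had a promoter in the RefSeq table (GRCh38.p14), 5 of the highest and 7 of the lowest. The 250 bases before the RefSeq start were searched on both strands for TGANTCA, the word bound by AP-1, for TTTGAA, the cell cycle homology region, and for an NF-kappaB word and a CArG box. The promoters of 3 genes that rose and 3 that fell are shown because they hold a word, and the other 6 held none. They are read 5′ to 3′ on the gene's own strand, the minus strand in each case, and the capitals mark the matched word or its reverse complement, with its position counted from the RefSeq start. Each of these 6 windows holds 1 match, and no 2 words overlap. The windows of MUC13, COL21A1 and LINGO2 lie inside the annotated gene, at an internal RefSeq start. The annotated 5′ ends of these genes are at positions 124953819, 56394094 and 29213601. Which start the cells use was not tested.
MUC13, chr3:124934752-124935001, AP-1 word from position -178: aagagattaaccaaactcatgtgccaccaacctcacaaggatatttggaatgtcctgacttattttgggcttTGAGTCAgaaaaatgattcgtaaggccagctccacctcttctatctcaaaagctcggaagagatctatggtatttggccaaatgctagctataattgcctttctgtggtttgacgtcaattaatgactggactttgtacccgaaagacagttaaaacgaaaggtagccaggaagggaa
TENT5B, chr1:27012851-27013100, AP-1 word from position -133: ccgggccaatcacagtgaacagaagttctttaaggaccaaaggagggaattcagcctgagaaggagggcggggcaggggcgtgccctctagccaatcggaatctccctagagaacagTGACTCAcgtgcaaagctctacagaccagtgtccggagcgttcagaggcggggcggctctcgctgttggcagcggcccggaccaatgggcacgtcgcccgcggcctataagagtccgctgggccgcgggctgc
TREM1, chr6:41286683-41286932, TTTGAA word from position -192: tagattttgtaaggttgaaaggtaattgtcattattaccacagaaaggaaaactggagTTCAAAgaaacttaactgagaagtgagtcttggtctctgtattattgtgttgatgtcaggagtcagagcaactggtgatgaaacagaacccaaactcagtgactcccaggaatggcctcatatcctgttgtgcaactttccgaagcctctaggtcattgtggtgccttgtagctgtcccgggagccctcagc
HAS1, chr19:51723992-51724241, TTTGAA word from position -30: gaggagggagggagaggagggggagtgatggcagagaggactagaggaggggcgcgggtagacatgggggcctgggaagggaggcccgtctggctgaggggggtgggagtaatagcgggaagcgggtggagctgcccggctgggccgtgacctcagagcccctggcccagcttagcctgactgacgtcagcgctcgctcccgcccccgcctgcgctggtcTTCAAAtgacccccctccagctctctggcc
COL21A1, chr6:56247581-56247830, TTTGAA word from position -146: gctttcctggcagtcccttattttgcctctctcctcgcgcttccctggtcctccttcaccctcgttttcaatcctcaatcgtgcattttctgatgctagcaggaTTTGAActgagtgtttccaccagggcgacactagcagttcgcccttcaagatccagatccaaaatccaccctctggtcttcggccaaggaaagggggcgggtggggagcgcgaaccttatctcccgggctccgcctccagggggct
LINGO2, chr9:28719306-28719555, TTTGAA word from position -57: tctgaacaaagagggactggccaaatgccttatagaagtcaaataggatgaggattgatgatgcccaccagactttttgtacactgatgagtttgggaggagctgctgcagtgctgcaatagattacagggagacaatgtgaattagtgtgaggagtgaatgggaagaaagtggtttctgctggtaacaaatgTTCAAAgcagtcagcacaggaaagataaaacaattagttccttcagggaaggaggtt

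The AP-1 word thus stands in the window of a gene that rose, MUC13, and of one that fell, TENT5B, and TTTGAA in TREM1 and HAS1, which rose, and in COL21A1 and LINGO2, which fell. Over larger sets, the AP-1 word stood in 10.1% of the promoters of genes more than 2-fold higher (50 of 494, outside the 3 lists). It stood in 6.34% of the promoters of genes more than 2-fold lower (9 of 142). Among all tested protein-coding genes with a promoter the share was 4.34%, and among all RefSeq promoters 6.60%. The NF-kappaB word stood in 2.23% of the higher set (11 of 494), in none of the 142 promoters of the lower set and in 1.36% of tested protein-coding genes. TTTGAA was found in 14.4%, 10.6% and 8.86% of the same sets, and in 13.6% of all RefSeq promoters. The CArG box stood in 1 of the 494 and in none of the 142. Genes without a promoter in the table are not in these sets. These shares are descriptions of letters and were not tested.

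By the change in mean CPM, the 6 largest rises and falls were taken among genes outside the 3 lists whose groups did not overlap and that had at most 50% of their exonic bases under another gene's exon. Several of them encode matrix and cytoskeletal proteins. FTH1, with the second-largest rise after FN1, is given below and lay outside these conditions, as did COL1A1 and the vimentin gene VIM, which were called lower with larger falls in mean CPM than any of the 6. FN1, which encodes fibronectin, had the largest rise in mean CPM of all named genes, from 14609, 8821, 12919 and 12944 CPM to 26686, 17188, 18422 and 21116 CPM (log2 fold change 0.76 ± 0.19 SE, adjusted p = 0.00384). THBS1, which encodes the matrix glycoprotein thrombospondin 1, rose from 3897, 1280.4, 1594 and 1743 CPM to 9106, 4982, 5063 and 5181 CPM (1.51, adjusted p = 0.00661), and replicate 1 was the highest library in both groups. TFPI2, an inhibitor of serine proteases in the matrix, rose from 51.9, 54.7, 54.1 and 87.9 CPM to 528, 4214, 4167 and 2976 CPM (log2 fold change 5.58 ± 0.69 SE, adjusted p = 1.58e-05), with replicate 1 lowest among the treated libraries. ABI3BP, a matrix protein that binds to the cell surface, went from 178–324 CPM to 1171–2469 CPM (2.67, adjusted p = 3.49e-06). The complement component C3 had 332, 96.1, 117 and 92.7 CPM before and 2482, 1377, 1492 and 1482 CPM after MmC (3.42, adjusted p = 2.19e-05), and its log2 fold change was 4.08 without MmC-/GDF11- replicate 1. The mitochondrial transcript MT-CO1 went from 5719–7482 CPM to 9418–10359 CPM (0.56, adjusted p = 0.0102), but 66.7% of its words also occur in another gene, so its reads may be split.

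The 6 falls include the cytoplasmic actins ACTB and ACTG1, and ACTB lost the most of the 6. ACTB had 5897, 7648, 5651 and 5618 CPM before and 5076, 3931, 3143 and 2442 CPM after MmC (log2 fold change -0.77 ± 0.24 SE, adjusted p = 0.0148), and its adjusted p rose to 0.0538 without MmC-/GDF11- replicate 2 and 0.0533 without MmC+/GDF11- replicate 4. ACTG1 fell from 4710.2–6248 CPM to 2384–4300.2 CPM (-0.72, adjusted p = 0.00675). ANXA2, a calcium-dependent membrane-binding protein, fell from 3559, 4828, 3938 and 3289 CPM to 2498, 1526, 1542 and 1323 CPM (log2 fold change -1.18 ± 0.23 SE, adjusted p = 0.000677). The galectin gene LGALS1 went from 2378–3798 CPM to 1314–1773 CPM (-0.87, adjusted p = 0.000926), the glycolytic enzyme gene ENO1 from 2126–4545 CPM to 1705–2066 CPM (-0.87, adjusted p = 0.00206), and CCDC80, a matrix protein of fat cells, from 2006–4110.1 CPM to 766–1963 CPM (-1.29, adjusted p = 0.0089).

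Long noncoding RNAs showed rises of the same order. PDE7B-AS1 went from 0.078–0.202 CPM to 2.07–12.1 CPM (6.01, adjusted p = 3.83e-06), with 22.8% of its words shared with another gene. PINCR, known as a p53-induced noncoding RNA and not a member of the p53 list used here, rose from 0.221, 0.186, 0.0393 and 0.0771 CPM to 8.21, 3.24, 4.23 and 4.26 CPM (log2 fold change 5.24 ± 0.48 SE, adjusted p = 8.17e-07). LINC00520 rose from 0.131–0.299 CPM to 2.64–9.86 CPM (4.87, adjusted p = 1.58e-06). The deepest fall was in the unnamed gene ENSG00000234810.4 (chr1:55329288-56070513), from 3.12, 9.15, 8.51 and 10.4 CPM to 0.284, 0.28, 0.268 and 0.599 CPM (log2 fold change -4.45 ± 0.48 SE, adjusted p = 5.10e-06). LINC01018 and LINC01638 fell by 2.87 and 2.42 on the log2 scale, with LINC01018 at -4.11 without MmC+/GDF11- replicate 1 and -2.27 without MmC-/GDF11- replicate 1, and LINC01638 at -3.11 without MmC+/GDF11- replicate 1.

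To order the rest, 27 lists of genes with a shared role were counted, and 458 called genes outside the 3 well-known lists belonged to one or more of them. In none of these lists, the 3 well-known lists or the marker lists were 7956 genes, 91.9% of all called. The lists were written with earlier results of these data known, so their counts are descriptions. They are to be read against the 22.9% of all genes called higher and the 22.4% called lower. Those shares belong to the reported fit, and a count from another fit is to be read against that fit's own. With the replicate block 5506 rose and 5560 fell of 19103 genes over all 16 libraries, and 4561 and 4428 of 18054 over the 8. Without replicate 1 in any group 5059 rose and 4945 fell of 19338. A list near the shares of its fit shows nothing particular to its members. Of the genes named from them, NID2, ITGB3, CDH13, ITGA4, TPM4, CNN2, ACAT2, MAN2B1, ATP5F1C, MT-ND1, SRSF1, NQO1, IFI6, IER3, CP, CFI, NGFR, RARA, ERCC5, DDIT3, MT1G, FTH1 and SAA1 share more than 20% of their exonic words with another gene, and their counts may include or lack reads of it.

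**Figure D3:**
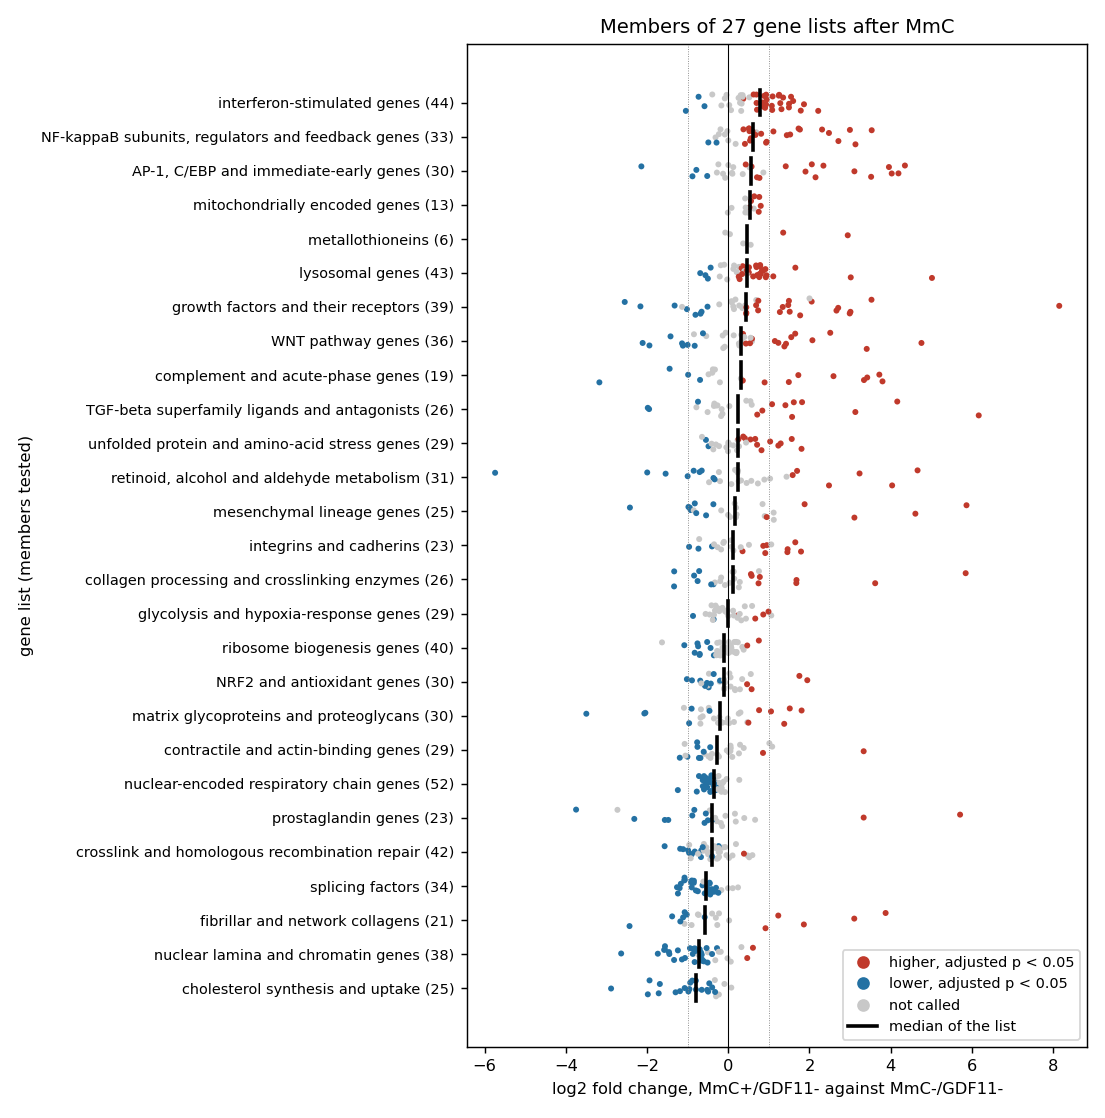
Log2 fold change of every tested member of the 27 lists (MmC+/GDF11- against MmC-/GDF11-), 1 point per gene, coloured where the adjusted p was under 0.05, with a black bar at the median of each list and dotted lines at 2-fold. Interferon-stimulated genes have the highest median, 0.77, and cholesterol genes the lowest, -0.80.

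Genes of cholesterol synthesis and uptake fell. This pathway makes cholesterol from acetyl-CoA under the control of SREBP2. Of 25 members 20 fell, none rose and the median log2 fold change was -0.80. The summed level of the list was between 1390.2 and 1880.3 CPM in MmC-/GDF11- and between 808 and 922 CPM in MmC+/GDF11-. ACAT2, at the entry of the pathway, had 35.4, 59.9, 52.6 and 56.6 CPM before and 11.5, 13.2, 13.8 and 14.9 CPM after MmC (log2 fold change -1.94 ± 0.14 SE, adjusted p = 8.83e-08). The early enzyme gene MVK fell from 26.7–41.6 CPM to 8.27–10.7 CPM (-1.98, adjusted p = 2.02e-07). The feedback regulator gene INSIG1 fell from 104–205 CPM to 28.3–54.2 CPM (-1.68, adjusted p = 0.000104), and SREBF2, which encodes SREBP2, from 179–205 CPM to 141–163 CPM (-0.32, adjusted p = 0.00703). The 20 falls became 19 to 21 when single libraries were left out.

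Nuclear lamina and chromatin genes and splicing factors fell just as broadly. Of 38 lamina and chromatin genes 28 fell and 2 rose, with a median of -0.72, and their sum was between 5474 and 7782 CPM in MmC-/GDF11- and between 3416 and 4097 CPM in MmC+/GDF11-. LMNB1, whose loss is a known mark of senescence, had 30.4, 47.6, 54.3 and 70.9 CPM before and 3.73, 10.6, 8.28 and 10.1 CPM after MmC (log2 fold change -2.64 ± 0.36 SE, adjusted p = 4.04e-05). LMNA, which encodes lamins A and C, also fell, from 1991, 2660.0, 1949 and 1972 CPM to 1192, 919.9, 753 and 763 CPM (-1.24, adjusted p = 7.01e-05). The chromatin protein HMGB1 fell from 254–362 CPM to 104–126 CPM (-1.46, adjusted p = 1.40e-07), HMGN2, a nucleosome-binding protein, from 227–422 CPM to 95.1–110.2 CPM (-1.74, adjusted p = 4.05e-07), and the heterochromatin protein gene CBX1 from 91.5–109 CPM to 55.2–60.6 CPM (-0.85, adjusted p = 2.99e-07). Of 34 splicing factors 29 fell, none rose and the median was -0.55. HNRNPA1 fell from 665–911 CPM to 350.2–379.7 CPM (-1.17, adjusted p = 7.41e-07), HNRNPD from 223–319 CPM to 107–123 CPM (-1.26, adjusted p = 1.20e-06), and SRSF1 from 56.4–76.7 CPM to 30.4–34.8 CPM (-1.08, adjusted p = 6.29e-07). The treated libraries lay close together for these genes, and none reached an untreated one.

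In the reported fit, most repair genes for DNA crosslinks, the lesion that MmC makes, were not called. Of 42 genes for crosslink and homologous recombination repair 12 fell and 1 rose, a share of falls not far from the 22.4% of all genes tested, with a median of -0.40. With the replicate number as a block in the fit 22 fell over all 16 libraries and 23 over the 8, and 21 fell without replicate 1 in any group. Among all genes 5560 of 19103, 4428 of 18054 and 4945 of 19338 fell in these fits. The share of falls in the list was above that of all genes in each of them. FANCD2, the central protein of the Fanconi pathway, fell from 12.2, 19.3, 20.3 and 26.5 CPM to 4.23, 7.74, 7.02 and 7.45 CPM (-1.57, adjusted p = 0.000141). RAD51D fell from 14.3–17.1 CPM to 7.28–9.93 CPM (-0.99, adjusted p = 9.62e-06), NBN, a sensor of broken ends, from 65.6–79.8 CPM to 41.7–50.5 CPM (-0.63, adjusted p = 2.13e-05), and FANCF from 7.89–8.8 CPM to 4.02–5.7 CPM (-0.90, adjusted p = 8.38e-05). BRCA1 and BRCA2 were not called, at log2 fold changes of -0.40 ± 0.36 and 0.59 ± 0.44 (SE). ERCC5, a nuclease of excision repair, was the member that rose (0.39, adjusted p = 0.0131), and its adjusted p was 0.0838 with no filter on low counts.

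**Figure D4:**
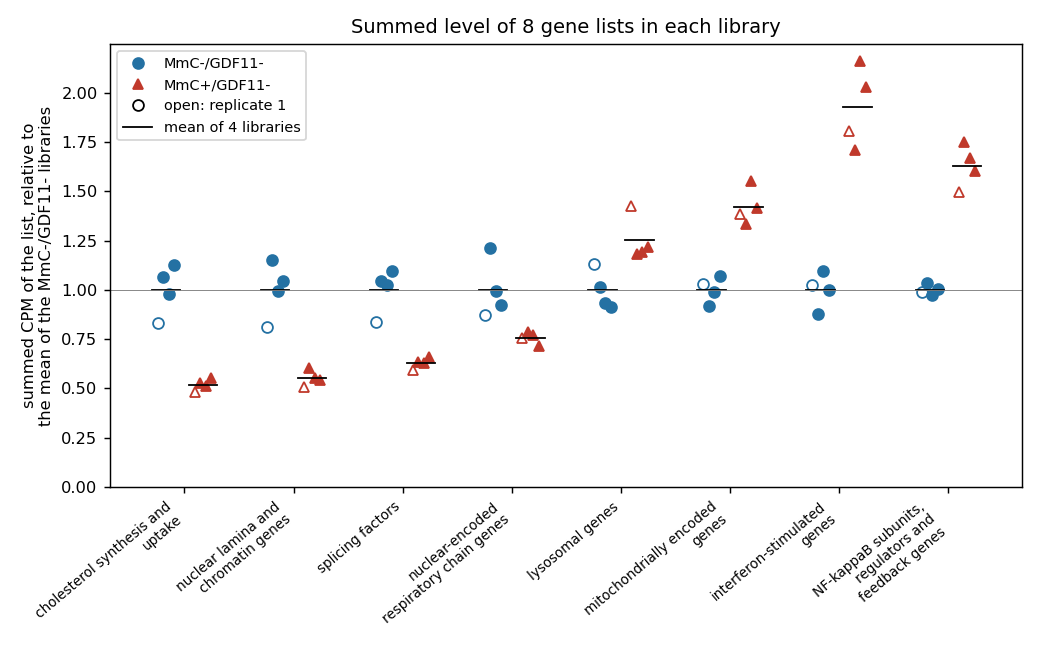
Summed CPM of the members of 8 lists in each library, divided by the mean of the 4 MmC-/GDF11- libraries, with circles for MmC-/GDF11-, triangles for MmC+/GDF11-, replicate 1 open and a line at the mean of 4 libraries. The treated libraries lie under the untreated ones in the first 4 lists and over them in the last 4.

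Lysosomal genes rose together. Lysosomes digest what the cell takes up or discards, and their beta-galactosidase is the stain by which senescent cells are recognised. Of 43 members 29 rose and 4 fell, with a median of 0.45, and the sum was between 7765 and 9609 CPM in MmC-/GDF11- and between 10004 and 12108 CPM in MmC+/GDF11-. CTSS, a cathepsin, rose from 10.6, 6.22, 7.67 and 7.14 CPM to 50.1, 70.0, 81.7 and 53.9 CPM (log2 fold change 3.02 ± 0.22 SE, adjusted p = 1.09e-07). FUCA1, which removes fucose from glycoproteins, rose from 4.06–6.21 CPM to 13.5–23.5 CPM (1.65, adjusted p = 1.44e-05), and MAN2B1, a mannosidase, from 55.3–66.2 CPM to 96.1–106 CPM (0.79, adjusted p = 1.12e-06). PSAP, the saposin precursor, was the abundant member and rose from 1226, 949.7, 903 and 782 CPM to 1726, 1995, 1861 and 1825 CPM (0.94, adjusted p = 1.99e-05). GLB1, the beta-galactosidase itself, rose by less, from 97.5, 86.5, 83.4 and 84.2 CPM to 133, 99.2, 107 and 110.3 CPM (0.35, adjusted p = 0.0138). PPT1, a thioesterase, fell from 81.7–106 CPM to 50.8–64.7 CPM (-0.69, adjusted p = 5.30e-05).

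Transcripts of the respiratory chain moved in opposite directions by the genome that encodes them. Of 52 nuclear-encoded members 33 fell and none rose, with a median of -0.36. This count was 19 without MmC-/GDF11- replicate 2 and 21 without MmC+/GDF11- replicate 4. ATP5F1A, a subunit of the ATP synthase, fell from 440.2, 566, 492 and 492 CPM to 333, 341, 317 and 297 CPM (-0.63, adjusted p = 0.000124), ATP5F1C from 127–198 CPM to 57.3–78.7 CPM (-1.24, adjusted p = 1.17e-05), and NDUFA10, of complex I, from 73.3–93.1 CPM to 53.1–60.5 CPM (-0.51, adjusted p = 0.000182). Of 13 mitochondrially encoded genes 6 rose and none fell, with a median of 0.52. With only the 8 libraries in the fit 10 rose, and 11 with the replicate block added. The count was 4 to 6 when single libraries were left out, with 4 without MmC+/GDF11- replicate 3. It was 5 with limma-voom and 5 without replicate 1 in any group. MT-ND4L, of complex I, rose from 319, 251, 328 and 379 CPM to 512, 561, 526 and 568 CPM (0.76, adjusted p = 8.14e-05), and MT-ND1 from 1221–1280.2 CPM to 1972–2474 CPM (0.80, adjusted p = 0.00254). Genes of glycolysis and the hypoxia response moved little, with 4 of 29 higher and 2 lower and a median of -0.02. Without replicate 1 in any group 14 of them were lower, and without MmC-/GDF11- replicate 1 alone 6 were. HK2, a hexokinase, rose from 34.5–58.6 CPM to 85.1–104 CPM (0.86, adjusted p = 0.000636), the carbonic anhydrase gene CA12 from 159–212 CPM to 281–480.4 CPM (0.99, adjusted p = 0.00214), and PFKFB3, an activator of glycolysis, from 28–41.1 CPM to 51.1–67.3 CPM (0.66, adjusted p = 0.00332).

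Ribosome biogenesis genes were mostly not called, with 9 of 40 lower, 2 higher and a median of -0.09. With the replicate block in the fit over all 16 libraries 14 fell, and 4 rose without MmC+/GDF11- replicate 1 and without replicate 1 in any group. Those that fell included factors of RNA polymerase I transcription, UBTF, from 104–118 CPM to 65.6–76.2 CPM (-0.70, adjusted p = 8.89e-06), and POLR1E, from 34.6–42.1 CPM to 21–24.7 CPM (-0.76, adjusted p = 3.56e-06). NPM1, the abundant nucleolar protein, fell from 803, 1110.2, 980.1 and 959 CPM to 556, 568, 599.6 and 637 CPM (-0.71, adjusted p = 0.000115). MYBBP1A, a nucleolar regulator of transcription, rose from 43.7–56.7 CPM to 60.7–76.6 CPM (0.47, adjusted p = 0.00149).

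Interferon-stimulated genes had the highest median of the lists, 0.77, with 27 of 44 higher and 3 lower. These genes are switched on by interferons and serve antiviral defence. Their sum was between 3129.9 and 3915 CPM in MmC-/GDF11- and between 6085 and 7710.3 CPM in MmC+/GDF11-. IFI6 had 306, 315, 333 and 237 CPM before and 823, 1019, 1068 and 1198 CPM after MmC (log2 fold change 1.79 ± 0.23 SE, adjusted p = 1.61e-05). The tetherin gene BST2 rose from 34.5–51.9 CPM to 102–135 CPM (1.55, adjusted p = 2.29e-05), and ISG15, a ubiquitin-like modifier, from 91.1–114 CPM to 145–313 CPM (1.24, adjusted p = 0.00173). The guanylate-binding protein gene GBP4 fell, from 10.2–13.9 CPM to 4.32–9.25 CPM (-1.04, adjusted p = 0.0012), and so did STING1, the adaptor of cytosolic DNA sensing, from 108, 108, 94.9 and 88.9 CPM to 85.7, 59, 57.8 and 63.8 CPM (-0.59, adjusted p = 0.00342). CGAS, the sensor upstream of it, was not called (0.33, adjusted p = 0.116). The count of 27 was 19 without MmC+/GDF11- replicate 3.

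Most NF-kappaB pathway genes rose, several of its own inhibitors among them. NF-kappaB is the transcription factor that turns on inflammatory genes, and its inhibitors are among its targets. Of 33 members 23 rose and 2 fell, with a median of 0.60. TNFAIP3 (A20), a feedback inhibitor, was the most evenly changed, at 22.1, 23, 27.3 and 28.1 CPM before and 143, 136, 143 and 139 CPM after MmC (log2 fold change 2.48 ± 0.09 SE, adjusted p = 5.79e-11). ZC3H12A, a ribonuclease that degrades cytokine messages, rose from 10.4–13 CPM to 65.8–115 CPM (3.00, adjusted p = 2.47e-08). The nuclear regulator gene NFKBIZ rose from 13.5–18.6 CPM to 66.6–89.3 CPM (2.31, adjusted p = 1.02e-08). TNFAIP6, a hyaluronan-binding protein, rose from 24.8, 12.3, 13.2 and 11.5 CPM to 115, 168, 202 and 228 CPM (3.53, adjusted p = 1.12e-06). NFKBIA rose from 46.9–59.4 CPM to 89.5–113 CPM (0.93, adjusted p = 1.55e-06). Among the subunits, RELA rose by 0.41 on the log2 scale (adjusted p = 0.00165) and NFKB1 was not called (-0.08 ± 0.07, SE). The 2 falls were 1 to 3 when single libraries were left out and 5 with the replicate block over all 16 libraries. The kinase gene IRAK1 fell from 222–318 CPM to 187–226 CPM (-0.49, adjusted p = 0.00167).

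Of 30 genes for AP-1, C/EBP and immediate-early factors 15 rose and 4 fell, with a median of 0.55. The count of 4 was 2 without MmC-/GDF11- replicate 2. The classic members FOS, JUN and FOSL1 were not called, with log2 fold changes of 0.10 ± 0.71, 0.09 ± 0.13 and -0.13 ± 0.27 (SE). The orphan nuclear receptors rose instead. NR4A1 had 3.3, 3.84, 2.78 and 4.35 CPM before and 5.97, 102, 96.2 and 87.9 CPM after MmC (log2 fold change 4.35 ± 0.80 SE, adjusted p = 0.000496). NR4A2 had 3.55, 36.9, 34 and 40.9 CPM after MmC against 1.49–2.1 CPM before (4.03, adjusted p = 0.000384), and NR4A3 3.59, 27.2, 26.7 and 33.6 CPM against 0.807–2.03 CPM (4.19, adjusted p = 0.000243). In all 3 genes replicate 1 lay near the untreated libraries while the other treated libraries lay far above them. MAFF, a small MAF factor, rose from 35–57.8 CPM to 142–233 CPM (2.06, adjusted p = 7.13e-07), the stress factor gene ATF3 from 22.5–30.7 CPM to 39.9–49.8 CPM (0.77, adjusted p = 3.96e-05), and IER3 from 2.55–4.51 CPM to 15.1–59.4 CPM (3.52, adjusted p = 1.47e-05), although 97.7% of the words of IER3 also lie on alternate contigs. KLF2, a factor of quiescent cells, fell from 39.8, 36.6, 33 and 16.3 CPM to 11.2, 7.96, 4.6 and 4.77 CPM (-2.14, adjusted p = 0.000459).

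Most prostaglandin genes were lower or not called. Prostaglandin E2 is made by cyclooxygenases and PTGES, and is taken up and broken down by SLCO2A1 and HPGD. PTGS2, the inducible cyclooxygenase, rose from 4, 6.41, 8.78 and 6.86 CPM to 37.7, 379, 388 and 559.6 CPM (log2 fold change 5.71 ± 0.83 SE, adjusted p = 6.80e-05). PTGES rose from 94.7, 73.2, 60.5 and 46.9 CPM to 309, 978, 831 and 660.2 CPM (log2 fold change 3.33 ± 0.38 SE, adjusted p = 8.22e-06). In both, replicate 1 was the lowest treated library. The transporter gene SLCO2A1 fell from 1.25–1.74 CPM to 0.172–0.391 CPM (-2.31, adjusted p = 3.57e-05), and the dehydrogenase gene HPGD, at low counts, from 0.468–0.771 CPM to 0–0.0691 CPM (-3.75, adjusted p = 5.39e-05). The constitutive cyclooxygenase gene PTGS1 was not called (-0.07 ± 0.28, SE). Over the whole list of 23, PTGS2 and PTGES were the 2 that rose, 10 fell, among them the carbonyl reductase gene CBR1 (-0.55, adjusted p = 8.49e-05), and the median was -0.39. With the replicate block 5 rose over all 16 libraries and 4 over the 8, and 4 rose without MmC+/GDF11- replicate 1.

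Complement and acute-phase genes were 9 higher and 4 lower of 19, with a median of 0.31. With at least 10 counts required in each of the 8 libraries 5 rose, and with the replicate block over all 16 libraries 7 fell. Beside C3, CD55, which shields cells from complement, rose from 51.2–73.5 CPM to 115–194 CPM (1.49, adjusted p = 1.11e-05). SAA1, an acute-phase protein, rose from 0.949, 0.352, 0.249 and 0.424 CPM to 14.3, 5.45, 4.14 and 3.41 CPM (3.80, adjusted p = 0.00035), and its log2 fold change was 3.15 without MmC+/GDF11- replicate 1. LBP, which binds bacterial lipopolysaccharide, and CP, the copper carrier ceruloplasmin, also rose, but only to 0.571–1.36 CPM and 0.405–0.525 CPM. CFI, the protease that inactivates C3b, fell from 4.29, 3.92, 3.29 and 2.49 CPM to 0.486, 0.233, 0.212 and 0.61 CPM (log2 fold change -3.17 ± 0.32 SE, adjusted p = 1.81e-06). The classical pathway genes C1R and C1S were not called (-0.33 ± 0.29 and 0.31 ± 0.30, SE).

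Collagens moved in both directions. Of 21 fibrillar and network collagens 7 fell and 5 rose, with a median of -0.58. The share of rises was near the 22.9% of all genes tested, and 22.4% of all genes fell. The 7 falls became 11 without MmC+/GDF11- replicate 1 and 12 without replicate 1 in any group, 13 with the replicate block over all 16 libraries and 11 with it over the 8, and 4 with no filter on low counts. COL1A1, the main chain of type I collagen, held 11530.0, 5501, 5289.7 and 4893 CPM before and 5768, 1689, 1451 and 1532 CPM after MmC. Treated replicate 1 lay above 3 of the untreated libraries, so the groups overlapped (log2 fold change -1.38 ± 0.54 SE, adjusted p = 0.0485). Its call was lost in 12 of 18 alternative fits, among them 7 of the 8 that left out a single library, and the log2 fold change was -2.12 without MmC+/GDF11- replicate 1. COL1A2 and COL3A1 had the same pattern and were not called (-0.75, adjusted p = 0.0801, and -1.08, adjusted p = 0.0798). COL6A3, of the microfibrils, fell evenly, from 2029, 1494, 1886 and 1942 CPM to 733, 796, 779 and 935 CPM (-1.18, adjusted p = 3.15e-05). COL5A3 fell from 94.3–179 CPM to 13.6–36.6 CPM (-2.43, adjusted p = 0.000255) and COL8A2 from 7.2–12.9 CPM to 5.67–6.47 CPM (-0.58, adjusted p = 0.00514). Among the rises were 2 less abundant types. COL7A1, of anchoring fibrils, rose from 6.17, 3.52, 3.56 and 5.55 CPM to 31.8, 59.6, 45 and 25.3 CPM (log2 fold change 3.10 ± 0.29 SE, adjusted p = 1.30e-06), and COL10A1, of hypertrophic cartilage, from 0.533–1.19 CPM to 5.84–20.7 CPM (3.88, adjusted p = 1.26e-05).

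Enzymes that process collagen were 8 higher and 7 lower of 26, with a median of 0.12. Apart from TGM2, the enzymes PLOD2, a lysyl hydroxylase, and LOXL4, a lysyl oxidase, rose from 365–536 CPM to 1138–1595 CPM and from 84.5–107 CPM to 198–414 CPM (1.68, adjusted p = 9.06e-07, and 1.68, adjusted p = 1.32e-05). SERPINH1, the collagen chaperone, fell from 852, 673, 586 and 506 CPM to 374, 227, 209 and 231 CPM (-1.33, adjusted p = 0.000178), and PCOLCE, the enhancer of procollagen cleavage, from 796–1242 CPM to 345–451 CPM (-1.33, adjusted p = 3.88e-06). The 7 falls became 4 without MmC-/GDF11- replicate 1, without MmC+/GDF11- replicate 3 or without MmC+/GDF11- replicate 4. Of 30 matrix glycoproteins and proteoglycans 6 rose and 6 fell, with a median of -0.21, and 10 fell with the replicate block over all 16 libraries. The reported counts are near the shares of all genes tested, 22.9% higher and 22.4% lower. The microfibril gene MFAP2 fell from 75–94.4 CPM to 42.3–53.7 CPM (-0.90, adjusted p = 1.22e-05). NID2, of basement membranes, was higher (1.38, adjusted p = 0.00679), but its groups overlapped, and with the replicate block over the 8 libraries the adjusted p was 0.0688. Of 23 integrins and cadherins 8 rose and 3 fell, with a median of 0.13. ITGB3 rose from 14.4–18.9 CPM to 41.3–49.7 CPM (1.46, adjusted p = 1.09e-07), ITGB5 from 253–269 CPM to 390.2–568 CPM (0.86, adjusted p = 1.73e-05) and CDH13, an anchored cadherin, from 119–209 CPM to 331–560.0 CPM (1.46, adjusted p = 3.59e-05). ITGA4 was lower (-0.96, adjusted p = 0.00293).

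Contractile and actin-binding genes were 8 lower and 2 higher of 29, with a median of -0.27. The share of falls was not far from the 22.4% of all genes tested. The 8 falls became 14 without replicate 1 in any group and 15 and 14 with the replicate block over the 16 and the 8 libraries. These shares were above those of all genes in the same fits. The 2 rises became 6 in both fits with the block and 1 to 4 when single libraries were left out (4 without MmC-/GDF11- replicate 1 or without MmC+/GDF11- replicate 4). The falls became 4 without MmC-/GDF11- replicate 2, 5 without MmC+/GDF11- replicate 3 and 4 without MmC+/GDF11- replicate 4. Beside ACTG1, the tropomyosin gene TPM4 was lower (-0.44, adjusted p = 0.00869), and CNN2, a calponin, as well (-1.01, adjusted p = 0.00996). ACTA2, the actin of myofibroblasts, and TAGLN were not called (0.29 ± 0.30 and -0.49 ± 0.46, SE). MYOCD, a coactivator of smooth muscle genes, was higher but reached only 0.115–0.233 CPM after MmC, and its log2 fold change of 3.33 was 3.94 without MmC-/GDF11- replicate 1.

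Stress programs differed from one another. Of 29 genes of the unfolded protein and amino-acid stress responses 12 rose and 2 fell, with a median of 0.23. With the replicate block over the 8 libraries 8 rose, and without MmC-/GDF11- replicate 4 the 2 falls became 4. The chaperone genes DNAJB9 and DNAJC3 rose from 14.2–21.5 CPM to 46.8–67.2 CPM and from 60.3–82.5 CPM to 115–122 CPM (1.80, adjusted p = 7.41e-07, and 0.66, adjusted p = 4.33e-05), and CANX, the lectin chaperone calnexin, from 621, 609.8, 615 and 619 CPM to 924, 914, 877 and 885 CPM (0.55, adjusted p = 5.57e-05). DDIT3 (CHOP) rose from 15.9–28.1 CPM to 29.8–93.9 CPM (1.56, adjusted p = 0.0014), with an adjusted p of 0.0612 under that block. CRELD2 was lower (-0.55, adjusted p = 0.00245). Of 30 NRF2 and antioxidant genes 9 fell and 4 rose, with a median of -0.10, and 7 rose in each fit with the replicate block. Among all genes tested 22.4% fell and 22.9% rose. NQO1, a typical NRF2 target, fell from 305, 466, 369.8 and 389.7 CPM to 189.8, 181, 183 and 201 CPM (log2 fold change -1.02 ± 0.12 SE, adjusted p = 5.80e-06). TKT, of the pentose phosphate pathway, fell from 429.5–639 CPM to 256–352 CPM (-0.89, adjusted p = 0.000198). HMOX1, GCLM and TXNRD1 were not called (0.55 ± 0.29, 0.06 ± 0.11 and 0.16 ± 0.16, SE). FTH1, the ferritin heavy chain, rose from 3834, 3615, 2841 and 2563 CPM to 11881, 13205, 10173 and 8014 CPM (1.75, adjusted p = 2.76e-06), but 63.2% of its exonic bases lie under an exon of another gene. Of 6 metallothioneins MT2A and MT1G rose. MT2A went from 233, 531, 409 and 451 CPM to 560.1, 1490.1, 1241 and 855 CPM (1.35, adjusted p = 0.00311). MT1G stayed under 1 CPM, and its log2 fold change of 2.94 was 3.79 without MmC-/GDF11- replicate 3.

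Several ligands of the TGF-beta superfamily rose, and SMAD6 and ID1, which BMP signals induce, fell. BMPs signal through SMAD1 and SMAD5, whose direct targets include ID1 and the inhibitor SMAD6. Of 26 members 10 rose and 3 fell, with a median of 0.24. BMP6 rose from 5.09, 1.69, 2.03 and 1.76 CPM to 9.48, 69.9, 59.7 and 49.3 CPM (log2 fold change 4.16 ± 0.69 SE, adjusted p = 0.000217), beside BMP2 above. INHBB, a subunit of activin B, rose from 0.29–0.975 CPM to 3.96–5.27 CPM (3.13, adjusted p = 1.77e-06), GDF6 from 4.47–8.03 CPM to 14.6–17.9 CPM (1.41, adjusted p = 1.05e-05), and LTBP1, which holds latent TGF-beta in the matrix, from 114–129 CPM to 249–551 CPM (1.82, adjusted p = 1.84e-05). SMAD6 fell from 24.6, 28.8, 30.8 and 33.6 CPM to 6.91, 8.29, 6.29 and 8.33 CPM (log2 fold change -1.98 ± 0.19 SE, adjusted p = 1.10e-06) and ID1 from 68.7, 68.5, 56.4 and 32.9 CPM to 4.95, 18.3, 16.3 and 19.1 CPM (-1.95, adjusted p = 0.00133). With the replicate block over the 8 libraries the adjusted p of BMP6 was 0.051 and that of ID1 0.0579. ID3 and TGFB1 were not called (-0.18 ± 0.39 and -0.16 ± 0.12, SE). The 3 falls became 6 without MmC+/GDF11- replicate 1 and 7 without replicate 1 in any group and with the replicate block over all 16 libraries.

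Of 36 WNT pathway genes 14 rose and 8 fell, with a median of 0.32. The ligand gene WNT5A rose from 87.8, 43.2, 51.1 and 52.8 CPM to 129, 213, 206 and 188 CPM (1.65, adjusted p = 0.000115), and WNT2 fell from 93.7, 34.4, 32.4 and 22.8 CPM to 19.6, 7.83, 7.44 and 7.54 CPM (-2.11, adjusted p = 0.00477), with a log2 fold change of -1.48 without MmC-/GDF11- replicate 1. PORCN, which attaches the lipid that WNT ligands need, rose from 10.7–11.2 CPM to 20.5–30.7 CPM (1.23, adjusted p = 2.04e-06), the secreted inhibitor gene DKK1 from 96.3–129 CPM to 216–320.0 CPM (1.15, adjusted p = 2.01e-05), and the receptor gene FZD2 fell from 67–79.4 CPM to 25.8–41.4 CPM (-1.14, adjusted p = 1.53e-05). Growth factors and their receptors were 19 higher and 8 lower of 39, with a median of 0.44. HBEGF, a ligand of the EGF receptor, rose from 2.38, 4.32, 4.09 and 3.84 CPM to 7.87, 33.9, 29.2 and 24.7 CPM (2.71, adjusted p = 0.000148), and PGF, of the VEGF family, from 0.916–1.71 CPM to 4.28–18.2 CPM (2.99, adjusted p = 0.000103). FGFR1 rose from 216–231 CPM to 332–442 CPM (0.74, adjusted p = 3.78e-05) and NGFR from 0.135–0.208 CPM to 0.537–1.71 CPM (3.01, adjusted p = 1.30e-05). The receptors ERBB3, PDGFRA and PDGFRB fell, ERBB3 from 6.45–9.91 CPM to 1.06–1.86 CPM (-2.55, adjusted p = 1.00e-06), PDGFRA from 412–527 CPM to 228–316 CPM (-0.81, adjusted p = 0.000287), and PDGFRB by 0.68 on the log2 scale (adjusted p = 0.00112).

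Genes of retinoid, alcohol and aldehyde metabolism were 9 lower and 6 higher of 31, with a median of 0.23, and 13 rose with the replicate block over all 16 libraries. Beside ADH1B, ADH5 fell from 244–298 CPM to 141–197 CPM (-0.71, adjusted p = 0.000159). The retinoic acid receptor genes RARG and RARA fell from 71.8–97.5 CPM to 36–45.4 CPM and from 53.1–64.3 CPM to 27.7–36.9 CPM (adjusted p = 8.62e-06 and 5.34e-05), and CYP26B1, which degrades retinoic acid, rose from 2.29, 2.1, 2.27 and 1.18 CPM to 13.1, 9.31, 9.39 and 11.9 CPM (log2 fold change 2.48 ± 0.22 SE, adjusted p = 5.61e-07). Among mesenchymal lineage genes 8 of 25 fell and 5 rose, with a median of 0.16, beside 22.4% lower and 22.9% higher among all genes tested. The 5 rises became 10 without replicate 1 in any group, 9 without MmC+/GDF11- replicate 1, 10 with the replicate block over all 16 libraries and 2 with at least 10 counts required in each of the 8 libraries. The 8 falls became 4 or 5 without any 1 of 6 libraries (all but MmC-/GDF11- replicate 2 and MmC+/GDF11- replicate 1). They were 5 with that filter and with only the 8 libraries in the fit. RUNX2, the master factor of bone cells, fell from 14.6, 13.6, 17.3 and 18.3 CPM to 9.91, 7.69, 7.08 and 7.64 CPM (-0.98, adjusted p = 0.000123), and SNAI2, a mesenchymal transcription factor, from 83.6–109 CPM to 43–62.1 CPM (-0.82, adjusted p = 0.000101). PLIN2, which coats lipid droplets, rose from 93.5, 118, 99.2 and 99.9 CPM to 245, 368, 369 and 528 CPM (1.88, adjusted p = 2.00e-05). SOX9, of cartilage, was not called (0.84 ± 0.38, SE).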

How the data were processed

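Poly(A)-enriched RNA was prepared with a strand-specific kit and sequenced on a NovaSeq 6000. HISAT2 2.2.1 (alignment to hg38) and featureCounts 2.0.1 (genes of GENCODE V38) were used by the authors, who deposited raw counts, without normalization, for 60649 identifiers in 16 libraries. The settings for read pairs, strand and reads that align to several places are not given in the sources used here, so genes that overlap or resemble each other may have lost or gained reads. All libraries carry 1 sequencing run label. The study calls the 4 libraries of a group biological replicates. They come from 1 cell line, and the sources do not say how the cultures were separated.

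Testing was done in edgeR 4.0.16 (R 4.3.3). The filter filterByExpr for the 4 groups (minimum count 10, minimum total 15) left 19103 genes, and libraries were scaled by TMM. All 16 libraries entered the robust quasi-likelihood fit, which had a mean for each group and left the replicate number out, with Benjamini-Hochberg adjustment over 19103 genes at 0.05. Adjusted p-values in the text come from this test unless another is named, and the test against 2-fold is edgeR's glmTreat. CPM are TMM-scaled, and sums of CPM over a list add its members. The SE given with a log2 fold change is its size divided by the square root of the test's F statistic. It is therefore approximate, above all for genes with few reads in a group. The steps were tested on simulated counts.

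The comparison, the 27 described lists, the 3 lists set aside and the markers were chosen with earlier results of these data known. Named genes lie outside the 3 lists and are, by log2 fold change, the 12 highest and the 12 lowest protein-coding genes among called genes with a mean of at least 2 CPM, no overlap of the groups and at most 50% of exonic bases under another gene's exon. They include the 6 largest rises and falls in mean CPM, the 3 highest and 3 lowest long noncoding RNAs, and up to 3 called members of each list in its main direction and 1 in the other, by p. Other members were named after their values were seen: NR4A1, NR4A2, NR4A3, PTGS2, COL10A1, MVK, INSIG1, SREBF2, LMNB1, LMNA, FANCD2, PSAP, GLB1, ISG15, STING1, TNFAIP6, NFKBIA, RELA, SAA1, SERPINH1, DDIT3, BMP6, ID1, WNT2, HBEGF, PDGFRA, PDGFRB, COL1A1, VIM, KRT14 and those given as not called. Some genes that fall under these rules are not reported here.

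Positions and shared sequence (words of 31 bases, 261 alternate contigs) were taken from GENCODE v44, not the authors' release, and 50 tested genes had no match. Promoters came from RefSeq on GRCh38.p14. Same-numbered libraries of both groups deviated together from their group means (correlations across genes of 0.368, 0.197, 0.113 and 0.235), so the numbers were taken to pair them. MmC-/GDF11- replicate 3 correlated slightly better with MmC+/GDF11- replicate 4 (0.134), and MmC+/GDF11- replicate 3 with MmC-/GDF11- replicate 4 (0.151). For replicate 3 the match by number was thus not the best from either side. The reported fit treats the libraries as unpaired, and fits with the number as a block were alternatives. The others were RLE and upper-quartile scaling, no or a stricter filter, only the 8 libraries, DESeq2 1.42.0, limma-voom (limma 3.58.1), glmTreat, leaving out replicate 1 in every group and leaving out each of the 8 libraries. Counts of any pair of libraries of a group differed far beyond sampling noise (chi-square per degree of freedom of 68.3 to 600 over 10336 genes), so each was used as 1 replicate.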

Additional observations from a re-analysis of the deposited data

Results flagged for a closer look

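Of 274 pairs of a named gene and a group of 4 libraries, 33 had 1 library so far from the others that its gap to the nearest divided by the range was above Dixon's 95% critical value for 4 samples. For independent, normally distributed values chance gives such a gap in about 1 in 20 groups, or 13.7 of these pairs. The pairs share the same 8 libraries and CPM were not logged, so 13.7 is only a rough guide. Replicate 1 was the outlying library in 22 of the 33, and the cause was not tested. For 31 of the pairs the value of that library is given against the nearest other library of its group.

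In MmC-/GDF11-, replicate 1 was high for ADH1B (134 CPM against 30.3 CPM), C3 (332 CPM against 117 CPM), CCDC80 (4110.1 CPM against 2280.4 CPM), LINC01018 (24.3 CPM against 8.87 CPM) and COL5A3 (179 CPM against 100.0 CPM). It was low for SLC14A1 (12.2 CPM against 24.5 CPM) and PFKFB3 (28 CPM against 39.1 CPM). In MmC+/GDF11-, replicate 1 was high for TENT5B (4.1 CPM against 1.86 CPM), THBS1 (9106 CPM against 5181 CPM), C3 (2482 CPM against 1492 CPM), CCDC80 (1963 CPM against 831 CPM), LINC01018 (4.49 CPM against 0.898 CPM), LINC01638 (2.59 CPM against 0.86 CPM), MFAP2 (53.7 CPM against 42.8 CPM), TPM4 (1733 CPM against 1322 CPM), FUCA1 (23.5 CPM against 13.7 CPM), RAD51D (9.93 CPM against 7.71 CPM) and CBX1 (60.6 CPM against 55.8 CPM). It was low for MUC13 (1.22 CPM against 18.5 CPM), DNAJB9 (46.8 CPM against 64.2 CPM) and NGFR (0.537 CPM against 1.52 CPM).

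Replicate 2 stood out for ABI3BP in MmC-/GDF11- (178 CPM, low, against 304 CPM) and ACTB in MmC-/GDF11- (7648 CPM, high, against 5897 CPM). Replicate 3 stood out for MT1G in MmC-/GDF11- (0.118 CPM, high, against 0.0311 CPM). Replicate 4 stood out for EHF in MmC-/GDF11- (0.308 CPM, high, against 0.091 CPM), LSP1 in MmC+/GDF11- (7.59 CPM, high, against 3.84 CPM), COL21A1 in MmC+/GDF11- (2.31 CPM, high, against 0.993 CPM), TFPI2 in MmC-/GDF11- (87.9 CPM, high, against 54.7 CPM), PDE7B-AS1 in MmC-/GDF11- (0.202 CPM, high, against 0.0917 CPM), ENSG00000234810 in MmC+/GDF11- (0.599 CPM, high, against 0.284 CPM) and CYP26B1 in MmC-/GDF11- (1.18 CPM, low, against 2.1 CPM).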

How the results depend on the processing

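The called genes were 4380 higher and 4275 lower. Against 2-fold (glmTreat) these counts were 990 and 304. In the other 18 alternatives both stayed within 1.5 times of the reported values, and none of the genes called in the reported fit was called in the opposite direction. With RLE scaling 4558 were higher and 4066 lower, with upper-quartile scaling 4644 and 3960, with no filter 4662 and 3724, with at least 10 counts in each of the 8 libraries 3670 and 3595, with only the 8 libraries 3697 and 3446, with DESeq2 4726 and 4225 and with limma-voom 4334 and 4278. Without replicate 1 in every group they were 5059 and 4945, of which 8155 were shared with the reported calls. Leaving out 1 library at a time gave 3946 to 4594 higher and 3656 to 4251 lower. With the replicate number as a block 5506 were higher and 5560 lower over all 16 libraries (8641 shared with the reported calls), and 4561 and 4428 over the 8. Beside NID2, BMP6, ID1 and DDIT3, and the list counts given with the block in the text, the replicate block changed no other call of a gene named as changed.

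Of 2447 recomputed values of the 137 genes chosen by the naming rule, without glmTreat, 2442 kept direction and call, 5 lost the call (TREM1, NID2, ERCC5 and ACTB in a pair of settings, as given above) and 0 changed sign. Genes without a value in a setting are not in this tally. With at least 10 counts required in each of the 8 libraries 119 of the 137 had a value, and with DESeq2 136. Genes with few reads in some library were thus not examined under that filter. The rule does not take in COL1A1, BMP6, ID1 and DDIT3, whose lost calls are given above. Under glmTreat 65 lost it. Without replicate 1 in every group the log2 fold change was 6.90 for BMP2, 8.97 for IL36B, 7.51 for MUC13, 4.87 for NR4A3, 5.03 for BMP6 and -4.76 for ADH1B. With limma-voom it was 6.76 for CST2, 6.90 for HAS1, 8.21 for IL36B, 6.25 for MUC13 and 3.74 for NR4A1. Of 1296 recomputed counts of called list members 1152 stayed within 1.5 times of the reported count. The depth of 74041671 to 107776837 counts leaves few reads behind MYOCD, MT1G, HPGD and the untreated level of most of the 12 highest, and ADH1B, although well covered, varied more between libraries (SE 1.12).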

Other observations

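Families of tested protein-coding genes that share the letters of their symbol before the first digit showed further groups. They were chosen after their values were seen. They are to be read against the 24.1% of protein-coding genes called higher and the 25.4% called lower. Of 48 MRPL genes, which encode proteins of the large mitochondrial ribosome, 31 fell and 1 rose, with a median log2 fold change of -0.38, and of 28 MRPS genes 15 fell and 0 rose (median -0.27). Of 49 RPL genes of the cytoplasmic ribosome 27 fell and 0 rose (median -0.37), and of 41 RPS genes 16 fell and 1 rose (median -0.33). Many ribosomal protein genes have processed pseudogenes that can take their reads. Of 13 annexin (ANXA) genes 8 fell and 1 rose (median -0.49), and of 10 COMMD genes, linked to protein sorting in endosomes, 8 fell and 0 rose (median -0.56).

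Other families were higher. Of 12 ABCA genes, which encode lipid transporters, 8 rose and 0 fell (median 0.84), of 10 TMED genes of the early secretory pathway 7 rose and 0 fell (0.54), and of 24 CYP genes, the cytochromes P450, 11 rose and 1 fell (0.87). Of 10 axonemal dynein (DNAH) genes 6 rose and 0 fell (0.85), and of 11 CHST genes, which add sulphate to glycans, 6 rose and 1 fell (0.57). Protein-coding genes that span more of the genome were called higher more often. Of 2605 genes spanning at most 10 kb 21.7% rose and 29.4% fell, with a median of -0.10, and of 629 genes spanning over 300 kb 28.6% rose and 20.8% fell, with a median of 0.06. These shares were not tested.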
